A study of Mus musculus with 1790 samples.

Results

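The cell-cycle genes described here are 44 named members, taken from a list of well-known genes of the mammalian cell cycle and kept wherever a table had a row for them, of 49915 gene symbols found in at least 1 of the 7 tables. They comprise 22 genes of G2 phase and mitosis (G2/M), 15 genes of the G1-to-S transition and DNA replication (G1/S), 4 genes of G1 cyclins and kinases (Ccnd1, Ccnd2, Cdk2 and Cdk4) and 3 inhibitors of cyclin-dependent kinases (Cdkn1a, Cdkn1b and Cdkn1c). A dividing cell makes the enzymes that copy DNA before and during S phase, then the kinases, spindle motors and ubiquitin ligase parts that take it through mitosis, and most of these transcripts disappear when a cell leaves the cycle. In the embryonic ventral forebrain, radial glia divide at the ventricle and intermediate progenitors divide away from it, and their daughters switch on neuronal genes as they become post-mitotic interneurons. Cyclins of the D class drive cells through G1, and the Cip/Kip inhibitors p21 (Cdkn1a), p27 (Cdkn1b) and p57 (Cdkn1c) hold the cycle back.

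The study profiled mouse interneurons and their precursors by single-cell RNA-seq, asking how cortical neurogliaform cells arise from the preoptic area (POA), a ventral forebrain region, in contrast with interneurons of the caudal ganglionic eminence (CGE). Droplet libraries were made from dissected POA and CGE of wild-type embryos at E14.5, with 2106 and 4115 deposited cells. The labels give C57BL/6 for the droplet and FlashTag embryos, while the methods name CD1 mice for FlashTag and both strains for the droplet libraries. The transgenic mice were kept on a C57BL/6 background. On C1 microfluidic chips, 352 FlashTag cells, labelled wild type, and 418 tdTOM+/GFP+ cells of E14.5 POA were captured. FlashTag is a dye injected into the ventricle, which marks cells dividing at its wall. These cells were collected 2 h after the injection and the brightest were sorted. The tdTOM+/GFP+ cells came from Hmx3-Cre::Htr3a-GFP embryos with an Ai14 tdTOM reporter. In that line tdTOM marks the Hmx3 lineage, GFP marks Htr3a transcription, and both drivers are BAC transgenes. The postnatal cells are GFP+ interneurons of the upper layers of the somatosensory cortex from the same line, pooled over brains. At P15 there are 196 tdTOM+ cells of the Hmx3 lineage and 194 without tdTOM, and at P30 there are 301 and 280. A further 47 tdTOM+/GFP+ cells at P14 to P25 were patched and sequenced (Patch-seq).

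Droplet cells had a median of 7574 UMIs in POA and 5710 in CGE, and embryonic C1 cells a median of 283979 counts (FlashTag) and 356990 counts (tdTOM+/GFP+). The authors had left out cells of clusters they did not take for GABAergic, and the labels do not tie any cell to an animal. Each collection is therefore 1 sample without replicates. Values below carry 95% exact intervals that cover counting error only, no test was run, and a member is called higher where its level is at least 2-fold that of the other group on the log2(CPM + 10) scale, with 10 or more CPM (counts scaled to the total of the group) in the higher one. Dissection and library cannot be told apart. Nkx2-1, which marks the ventral domains that include POA, had a UMI in 53.2% of POA and 19.7% of CGE cells, and Hmx2, a POA domain marker, in 7.12% and 0.0729%. Adult haemoglobin genes, made by red blood cells, had a UMI in 76.2% of POA and 70.3% of CGE cells. The droplet libraries shared 12 cell barcodes.

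The promoters of 4 members are shown because they hold the motifs best known for the genes of their phase. RefSeq (GRCm38.p6) gave a promoter for 35 of the 44 members. Genes of G2/M are often regulated through a CCAAT box (CCAAT) and a cell cycle homology region (TTTGAA), and genes of G1/S through E2F sites (TTTCCCGC or TTTGGCGC). These letters were searched on both strands in the 250 bases before the start, together with 1 other form of the homology region, TTCGAA. The shorter E2F core TTCCCGC, which every TTTCCCGC holds, was searched as well, and so was TTGGCGC, which every TTTGGCGC holds. In the first pair of lines, capitals mark CCAAT and TTTGAA on either strand. In the second pair, capitals mark TTTGGCGC on either strand.
Mki67, chr7:135716380-135716629, minus strand: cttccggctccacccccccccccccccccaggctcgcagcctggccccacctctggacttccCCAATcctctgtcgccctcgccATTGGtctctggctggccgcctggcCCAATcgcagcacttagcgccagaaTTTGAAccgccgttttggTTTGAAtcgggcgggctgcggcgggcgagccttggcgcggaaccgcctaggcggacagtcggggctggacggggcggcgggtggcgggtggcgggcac
Top2a, chr11:99024190-99024439, minus strand: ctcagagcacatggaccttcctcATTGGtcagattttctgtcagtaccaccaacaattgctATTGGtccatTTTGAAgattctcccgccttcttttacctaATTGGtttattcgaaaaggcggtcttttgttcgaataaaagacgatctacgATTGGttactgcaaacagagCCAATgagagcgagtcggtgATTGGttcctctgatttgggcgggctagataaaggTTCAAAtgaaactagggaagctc
Mcm5, chr8:75109259-75109508, plus strand: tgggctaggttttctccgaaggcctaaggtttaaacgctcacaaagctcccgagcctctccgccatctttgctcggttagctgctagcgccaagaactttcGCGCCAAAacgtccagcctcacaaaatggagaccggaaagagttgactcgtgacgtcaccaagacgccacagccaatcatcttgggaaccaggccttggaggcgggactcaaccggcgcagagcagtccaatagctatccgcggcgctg
Mcm6, chr1:128359706-128359955, minus strand: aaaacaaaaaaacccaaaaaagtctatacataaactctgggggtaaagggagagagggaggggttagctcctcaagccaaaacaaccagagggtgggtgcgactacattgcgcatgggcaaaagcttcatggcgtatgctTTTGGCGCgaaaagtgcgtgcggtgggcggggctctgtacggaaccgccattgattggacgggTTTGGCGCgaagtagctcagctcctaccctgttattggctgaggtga

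Mki67, which encodes the proliferation antigen Ki-67, has 2 TTTGAA and 3 CCAAT matches in its window, and Top2a, the topoisomerase that untangles chromosomes, has 2 and 6. Mcm5 and Mcm6, subunits of the replicative helicase, hold 1 and 2 matches to TTTGGCGC. Over the promoters found, CCAAT was present in 17 of 19 G2/M and 8 of 12 G1/S members, against 34.5% of all 27025 promoters of the same length. TTTGAA was present in 7 of 19 G2/M members and in 1 of 12 G1/S members, against 16.3% of all promoters. In a window that also takes in the 50 bases after the start, that number was 14 of 19, against 18.1%. TTTCCCGC or TTTGGCGC was present in 4 of 12 G1/S members and 0 of 19 G2/M members, against 1.35%. Either of the shorter cores was present in 5 of 12 G1/S and 3 of 19 G2/M members, against 5.71%. These matches describe the letters of the windows. The motifs, the windows and the 4 promoters were chosen after the values below had been seen, the promoters for holding the motifs.

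The first comparison asks how the levels of cell-cycle genes differ between POA and CGE at E14.5. Of the 44 members, 22 were called higher in CGE and 1 in POA. Of all 9100 genes tested, 1.31% were called higher in CGE and 2.13% higher in POA, and the median log2 difference over all of them, POA against CGE, was -0.000790. The 22 were 15 of the 22 G2/M members, 6 of the 15 G1/S members and Ccnd2. In summed counts, a smaller share of dividing cells and less RNA per dividing cell cannot be told apart.

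Among the G2/M members the log2 difference (POA against CGE) ran from -1.22 to -0.78, with a median of -1.06. Top2a stood at 206 CPM in POA and 489 CPM in CGE, a level 2.37-fold higher in CGE (2.30 to 2.46). Mki67 stood at 61.6 and 148 CPM, a 2.41-fold difference. Cdk1, the kinase that triggers mitosis, was at 75.3 CPM in POA and 189 CPM in CGE (2.51-fold, 2.38 to 2.66). Each of these differences is far wider than its counting interval, and they are close in size to one another. The cyclin partner of Cdk1, Ccnb1, had 96.2 CPM in POA and 216 CPM in CGE, and Ube2c, the ubiquitin-conjugating enzyme of the anaphase-promoting complex, 190 and 426 CPM. Ccna2 (cyclin A2), at 59.3 and 133 CPM, and Cdc20, the activator of the anaphase-promoting complex, at 78.0 and 179 CPM, differed alike. So did the mitotic kinases Aurka (29.0 and 68.5 CPM), Aurkb (37.1 and 87.9 CPM) and Plk1 (28.7 and 71.3 CPM). Birc5 (survivin), which works with Aurkb at the centromere, was at 98.0 CPM in POA and 228 CPM in CGE. Of the spindle proteins, Tpx2 was at 65.9 and 151 CPM, Nusap1 at 99.5 and 236 CPM and Hmmr at 27.5 and 67.1 CPM, all called higher in CGE. The kinetochore motor Cenpe was at 55.5 and 127 CPM and is called as well.

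The 7 G2/M members that were not called had the same sign. Cenpf, a kinetochore protein, was at 157 and 310 CPM, and Cenpa, the centromeric histone H3 variant, at 139 and 249 CPM. Their levels were less than 2-fold apart before any CPM were added. Kif23, a kinesin of the central spindle, was at 25.9 and 51.8 CPM, and Kif11, the kinesin that separates spindle poles, at 26.3 and 56.7 CPM. Cyclin B2 (Ccnb2) was at 55.8 and 117 CPM, and the checkpoint kinases Bub1 and Bub1b at 18.6 and 42.1 CPM and at 21.5 and 47.6 CPM. For the last 4 of these genes the ratio of the levels was above 2, and the 10 CPM added before the log keep them below the line.

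The G1/S members spread more widely, from -1.42 to -0.22 on the log2 scale, with a median of -0.95. Rrm2, the regulated subunit of ribonucleotide reductase, had 110 CPM in POA and 311 CPM in CGE, a 2.82-fold difference (2.70 to 2.95). Mcm3 and Mcm6, subunits of the helicase, were at 22.2 and 63.3 CPM and at 38.8 and 101 CPM in POA and CGE. Mcm5 was at 24.4 and 62.2 CPM, and with Mcm3 and Mcm6 it was called higher in CGE. Mcm2 (40.2 and 84.9 CPM) and Mcm4 (20.6 and 45.8 CPM) had the same sign and were not called. Mcm7, of the same hexamer, was at 81.7 and 139 CPM, which is a 1.70-fold difference and not called. Gins2, which joins the helicase at the fork, was at 16.2 and 42.7 CPM and called, as was Tyms, the thymidylate synthase, at 54.3 and 129 CPM. Pcna, the sliding clamp of DNA polymerase, was at 75.6 CPM in POA and 159 CPM in CGE, and Rrm1, the large subunit of ribonucleotide reductase, at 53.0 and 112 CPM. Both were just short of a call. Ccne1, which encodes cyclin E1, had a large ratio (3.29-fold, 2.69 to 4.03) at low levels of 5.62 and 18.5 CPM, and so did Cdc6, a loader of the helicase, at 5.12 and 16.0 CPM. Ccne2 (cyclin E2) was at 14.0 and 32.6 CPM. E2f1, a transcription factor of the G1/S genes, was at 8.32 and 11.3 CPM, so that its own transcript differed little.

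The remaining members did not share a direction. Ccnd1 (cyclin D1) was at 98.4 CPM in POA and 79.0 CPM in CGE, a log2 difference of 0.29. Ccnd2 (cyclin D2) was at 425 and 895 CPM, a log2 difference of -1.06. Cdk4, the kinase that both bind, was at 852 and 977 CPM, and Cdk2, the partner of cyclin E, at 15.1 and 35.1 CPM. Cdkn1a was at 11.4 and 8.61 CPM and Cdkn1b at 49.3 and 71.1 CPM. The member called higher in POA was Cdkn1c, which encodes p57, an imprinted inhibitor of the cycle. Its level was 634 CPM in POA and 87.6 CPM in CGE, 7.23-fold higher in POA (6.92 to 7.55), and after thinning each cell to 2500 UMIs it had a UMI in 52.9% of POA and 16.2% of CGE cells.

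**Figure D1:**
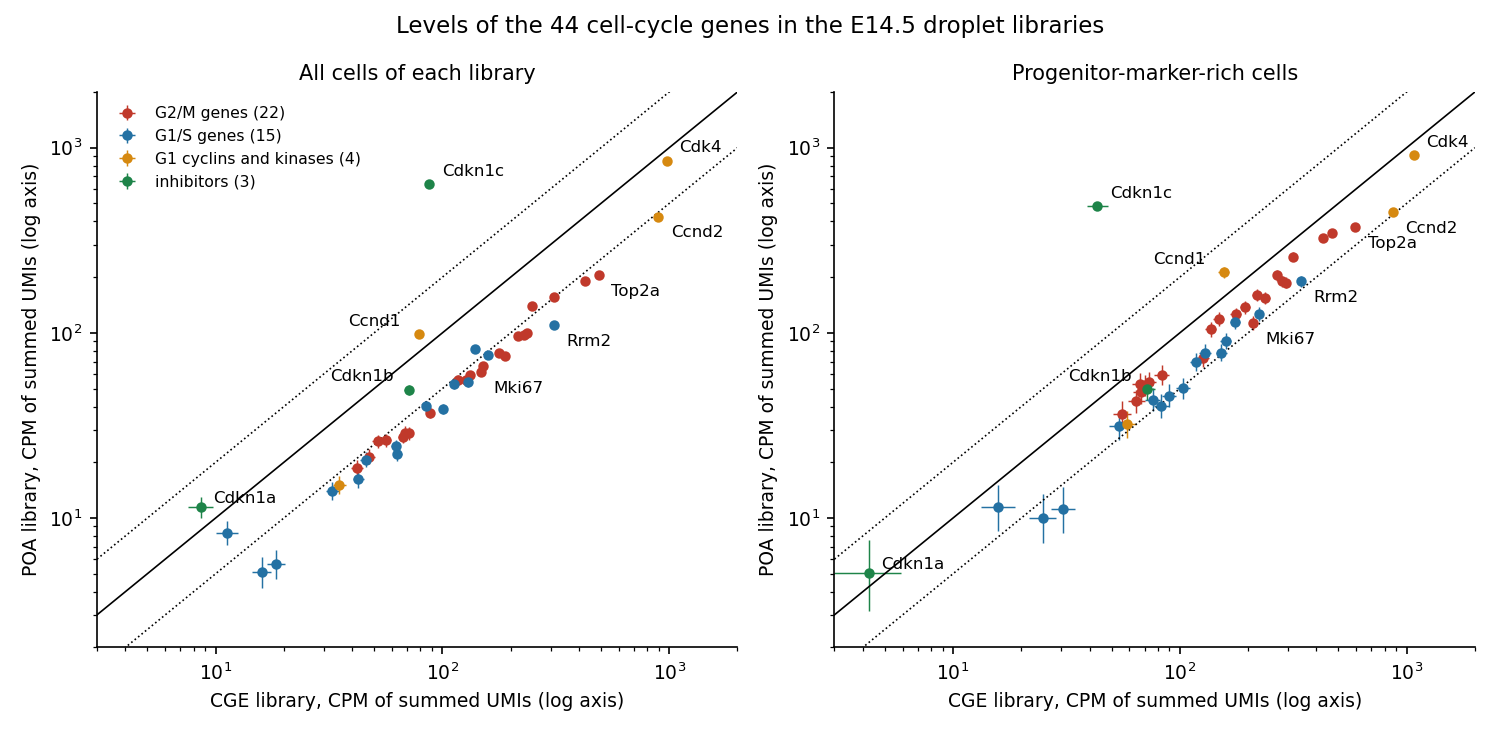
Level of each of the 44 members in the POA library (y axis, CPM of summed UMIs, log scale) against the CGE library (x axis, same scale), with exact 95% Poisson bars, over all cells (left) and progenitor-marker-rich cells (right). The solid line is equal level and the dotted lines a 2-fold difference. G2/M and G1/S genes lie below the line of equality in both panels, and Cdkn1c (634 CPM in POA and 87.6 CPM in CGE over all cells) lies far above it.

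Other genes of the cycle, taken as 3 lists that hold no member, had the same direction where they were called. Of the tested genes, 11 of 26 other G1/S genes, 7 of 32 other G2/M genes and 1 of 15 other G1 regulators were higher in CGE, and 0 were higher in POA. The number of members called depended on the rule. It was 34 with 1 CPM in place of 10 CPM added before the log, 2 with 50 CPM, 8 with the mean CPM of single cells, 12 without the 5% of cells with the most UMIs and 7 without cells that had a UMI of a glutamatergic, immune, vascular, Cajal-Retzius or oligodendrocyte precursor marker. Cells with a glutamatergic marker made up 14.4% of POA and 8.92% of CGE cells and cells with a Cajal-Retzius marker (Trp73, Lhx5 or Ebf3) 20.9% and 1.02%. The authors had already removed the cells they took for glutamatergic or Cajal-Retzius cells. A UMI of a marker therefore does not make a cell of that type, and the part of these cells in the differences was not tested.

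The share of cells with cell-cycle transcripts was counted after each cell had been thinned to 2500 UMIs, since deeper cells show more genes. At least 3 of the 22 G2/M genes were found in 458 of 2106 POA cells (21.7%, 20.0 to 23.6) and in 1899 of 4115 CGE cells (46.1%, 44.6 to 47.7). At least 3 of the 15 G1/S genes were found in 305 POA cells (14.48%) and 1277 CGE cells (31.0%). Both lists were met by 8.74% of POA and 21.7% of CGE cells, and either list by 27.5% and 55.4%. The intervals of the libraries are far apart for each list. Without thinning, the G2/M shares were 36.5% and 66.9% and the G1/S shares 43.4% and 56.9%, so that the G2/M share was the lower of the pair in POA, where it was the higher after thinning. In CGE it was the higher both ways. The shares depend on how many genes are asked for. With at least 6 G2/M genes, a number chosen after the values were seen, they were 14.2% in POA and 29.2% in CGE. Without the cells of CGE that had a UMI of Nkx2-1 or Lhx6, genes of more medial domains, the CGE share with at least 3 genes was 44.9%.

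Cells were then divided by markers that are not members. Cells with more UMIs of 5 progenitor markers (Nes, Hes5, Hes1, Sox9 and Fabp7) than of 7 neuronal markers (Stmn2, Dcx and Tubb3 of all neurons, and Gad1, Gad2, Dlx5 and Dlx6 of GABAergic cells) are called progenitor-marker-rich, and those in the opposite case neuronal-marker-rich. There were 484 and 1585 such cells in POA and 1112 and 2926 in CGE. In 187 POA and 349 CGE cells the sums were within 2 UMIs of each other, so that the class is a cut through a range. At least 3 G2/M genes were found in 39.9% of progenitor-marker-rich cells of POA and 65.6% of those of CGE, and in 15.6% and 37.8% of neuronal-marker-rich cells. The corresponding G1/S shares were 29.8% and 51.3%, then 9.59% and 22.2%. Both classes had the higher share in CGE.

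Within POA, 28 members were called higher in progenitor-marker-rich than in neuronal-marker-rich cells, and 0 were called lower. Of all 9438 genes tested, 4.91% were called higher and 2.37% lower. The 28 were 20 G2/M members, with a median log2 difference over the G2/M list of 1.18, 6 G1/S members, with 0.93 over their list, Ccnd1 and Cdk2. Ccnb1 was at 204 CPM in the progenitor-marker-rich and 66.4 CPM in the neuronal-marker-rich cells, a log2 difference of 1.49, and Ccnd1 at 212 and 68.5 CPM. Cdkn1a had the opposite sign at low levels, 5.02 and 13.1 CPM, a log2 difference of -0.62.

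Within CGE, 5 members were called higher in progenitor-marker-rich cells and 1 was called lower, where 5.44% and 4.96% of all 9104 genes tested were called. The 5 were Mcm3, Mcm4, Gins2, Ccnd1 and Cdk2, and none is a G2/M gene. Gins2, a part of the replicative helicase, was at 82.9 and 23.4 CPM, a log2 difference of 1.47. Ccnd1 was at 156 and 40.1 CPM, a log2 difference of 1.73. Top2a was at 593 CPM in the progenitor-marker-rich and 429 CPM in the neuronal-marker-rich cells, and the median log2 difference was 0.52 over the G2/M and 0.76 over the G1/S members. The G2/M median was thus lower in CGE than in POA, and this difference between the regions was not tested. The member called lower was Cdkn1c, at 43.3 and 104 CPM, a log2 difference of -1.10. In POA its difference between these classes was -0.46.

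The same classes can be set side by side across the regions. Between progenitor-marker-rich cells, 0 members were called higher in CGE, where 0.534% of all 9181 genes tested were, and Cdkn1c was called higher in POA, where 1.8% of genes were. The median log2 difference, POA against CGE, was -0.43 over the G2/M and -0.77 over the G1/S members. Mki67 stood at 113 CPM in POA and 211 CPM in CGE, Rrm2 at 190 and 342 CPM and Cdkn1c at 485 and 43.3 CPM (11.2-fold, 10.0 to 12.6). Between neuronal-marker-rich cells, a comparison added after seeing the data, 23 members were called higher in CGE, where 1.44% of all 8931 genes tested were. These were 17 G2/M members, 5 G1/S members and Ccnd2. The G2/M median was -1.26 and the G1/S median -0.90. Cdkn1c was again called higher in POA, where 2.13% of the genes were, at 670 and 104 CPM. The regional difference in G2/M transcripts was thus wider among neuronal-marker-rich than among progenitor-marker-rich cells, and no test of that difference could be made with 1 library a region.

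The balance of S-phase and mitotic transcripts was taken as the ratio of summed G1/S to summed G2/M UMIs. It was 0.345 (0.338 to 0.352) in POA and 0.360 (0.356 to 0.364) in CGE, so that the regions differed far less in this balance than in the amount of either list. In POA the ratio was 0.309 in progenitor-marker-rich and 0.373 in neuronal-marker-rich cells, and in CGE it was 0.388 and 0.342, which is the opposite order. Counts thinned to 2500 UMIs gave 0.409 in POA and 0.386 in CGE, which turns the order of the regions.

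The course of the members was followed along the difference of thinned Dcx and Nes UMIs in each cell. Dcx encodes the microtubule protein doublecortin of migrating neurons and Nes the intermediate filament nestin of radial glia. From 2 or more UMIs towards Nes to 4 or more towards Dcx, the share of POA cells with at least 3 G2/M genes was 42.0%, 43.0%, 24.4%, 15.5%, 12.5%, 12.7% and 12.8%. Along the same steps it was 69.0%, 64.4%, 58.9%, 40.9%, 32.9%, 28.3% and 22.1% in CGE. The G1/S shares went from 34.0% to 6.38% in POA and from 55.0% to 7.75% in CGE. In POA the G2/M share was level over the last 3 steps, and in CGE it was lower at each step. The end steps are thin in POA, with 50 cells at the Nes end and 47 at the Dcx end, against 100 and 271 in CGE. With cells thinned to 5000 UMIs, the Nes end had 66.0% in POA and 79.7% in CGE, and the Dcx end of CGE had 50.3%.

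**Figure D2:**
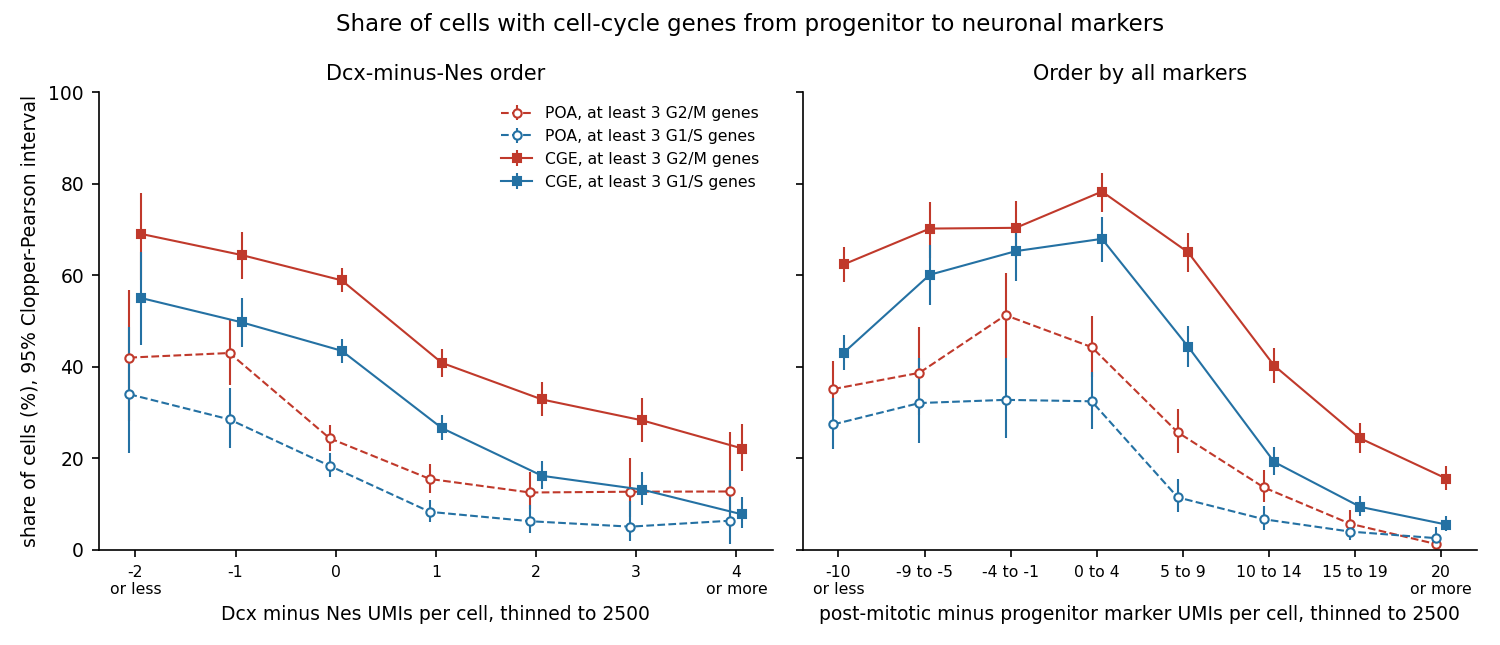
Share of cells (y axis, percent, with exact 95% Clopper-Pearson bars) with at least 3 G2/M genes (red) or at least 3 G1/S genes (blue) in POA (dashed, open circles) and CGE (solid, squares), along the Dcx minus Nes order (left) and the order by all markers (right), both in UMIs of cells thinned to 2500. The CGE share is above the POA share of the same list at each step, and in the marker order the G2/M share peaks in the middle, at 51.3% in POA and 78.3% in CGE.

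A difference of single UMIs is a coarse order, so cells were also ordered by the sum of the 7 neuronal minus the 5 progenitor markers, in 8 steps whose edges were chosen after the values were seen. Here the G2/M share did not start at its highest. In POA it was 35.1% at the progenitor end, 51.3% in the third step, just on the progenitor side of equal sums, and 1.29% at the neuronal end (20 or more). In CGE it was 62.3% at the progenitor end, 78.3% in the fourth step (0 to 4), 65.0% in the next and 15.6% at the neuronal end. The G1/S share was highest at 32.8% in POA and at 67.9% in CGE, and 2.57% and 5.53% at the neuronal end. In POA it was nearly level over the first 4 steps, at 27.4%, 32.1%, 32.8% and 32.5%. In both libraries the G2/M share was highest in a step where the marker sums differed by 4 UMIs at most. A small difference can also come from few UMIs of either kind, so that joint presence of both kinds is not shown.

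Single genes followed this order. In POA, 18 of the 22 G2/M members had their highest level in the third step. In CGE, 6, 8 and 8 had it in the third, the fourth (0 to 4) and the fifth step (5 to 9), and 9 of the 15 G1/S members had it in the fourth. Every one of the 22 G2/M members had its lowest level in the last step in both libraries. Top2a went from 330 CPM at the progenitor end of POA through 441 CPM to 17.3 CPM, and from 512 CPM in CGE through 905 CPM to 82.7 CPM. Rrm2 went from 182 CPM through 253 CPM to 21.5 CPM in POA and from 245 CPM through 704 CPM to 59.3 CPM in CGE. In the last step the G2/M members stood at a median of 3.71% of their highest level in POA and 12.3% in CGE, and the G1/S members at 15.0% and 15.4%.

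**Figure D3:**
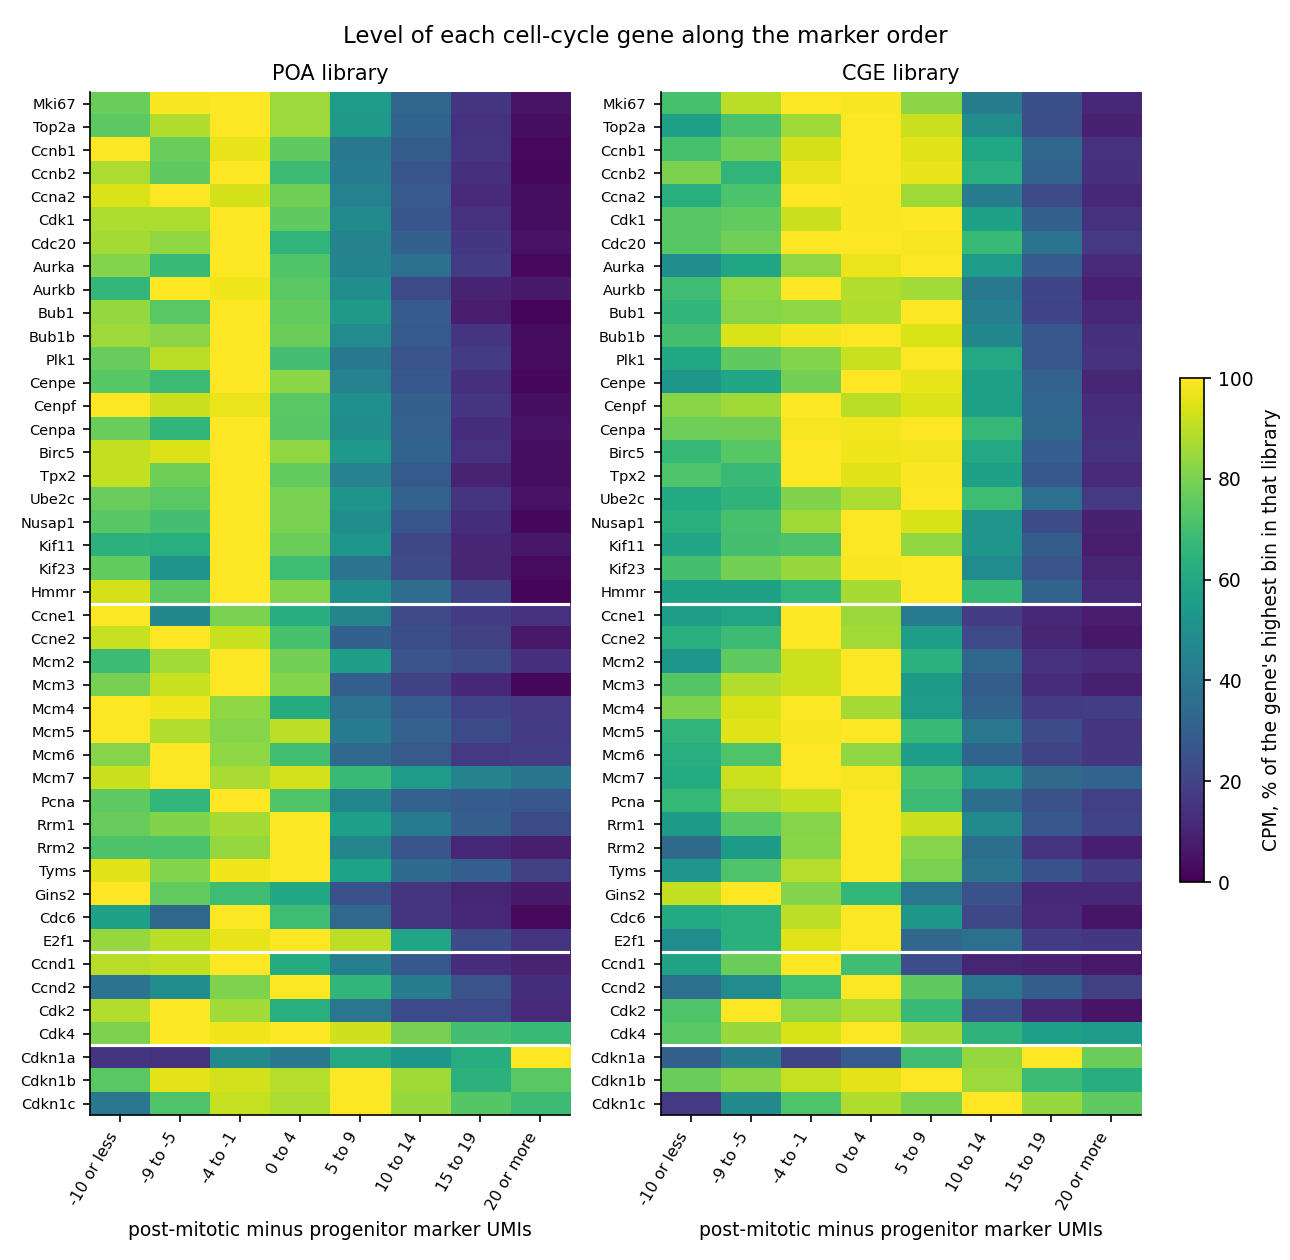
Level of each member (rows, in the order of the 4 groups, divided by white lines) along the marker order (columns, UMIs of neuronal minus progenitor markers) in POA (left) and CGE (right), as a percent of the gene's highest step in that library (color). G2/M genes peak mostly in the third step in POA and in the third to the fifth in CGE and are lowest in the last, while Cdkn1a, Cdkn1b and Cdkn1c stay high there.

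The neuronal end gives the level that these transcripts have where few cells should divide. There 4 of 311 POA cells (1.29%, 0.352 to 3.26) and 121 of 777 CGE cells (15.6%, 13.1 to 18.3) had at least 3 G2/M genes, at median depths of 7188 and 5169 UMIs before thinning. With at least 6 genes the shares were 0.322% and 3.22%. The G2/M members stood at a median of 4.08% of their progenitor-marker-rich level in POA (1.47 to 8.92%) and 16.5% in CGE (11.4 to 25.7%). What gives these counts was not tested. With each library's own level at this end subtracted, 7 members were still called higher in CGE, in place of 22.

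The G1 cyclins and the inhibitors had courses of their own along the marker order. Ccnd1 was highest early, at 205, 208 and 230 CPM in the first 3 steps of POA, and then lower at each step down to 22.3 CPM. In CGE it was at 128, 172 and 222 CPM and reached 15.1 CPM. Ccnd2 was highest in the fourth step in both, at 862 CPM in POA and 1910 CPM in CGE, from 330 and 698 CPM at the progenitor end and with 114 and 362 CPM at the neuronal end. The cyclins thus peaked 1 step apart in this order. Cdkn1a had the reverse course, from 3.15 CPM at the progenitor end to 21.1 CPM at the neuronal end in POA, and from 4.19 to 10.8 CPM in CGE, with 13.9 CPM in the step before the end.

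Cdkn1c in POA was at 315 CPM at the progenitor end, between 578 and 797 CPM in the next 6 steps and at 547 CPM at the neuronal end. In CGE it was at 21.1 CPM at the progenitor end, 59.6 CPM in the next step and between 91.0 and 126 CPM from there on. It was higher in POA at every step, in cells poor and rich in G2/M transcripts alike. In cells with at least 3 G2/M genes it was at 482 CPM in POA and 82.0 CPM in CGE, and in cells with 0 G2/M genes at 693 and 105 CPM. By contrast Ccnd2 was at 724 CPM in the former and 278 CPM in the latter in POA, and at 1206 and 471 CPM in CGE. These sums mix the marker classes in different shares. Within progenitor-marker-rich cells of CGE, Ccnd2 was at 851 CPM (828 to 875) with at least 3 G2/M genes and 956 CPM (882 to 1034) with 0. After thinning, 76.6% and 76.3% of these cells had a UMI of Ccnd2, so that a reversed order is not shown. In neuronal-marker-rich cells of CGE it was at 1437 and 380 CPM, with shares of 76.6% and 46.8%. Cdkn1c was at 32.1 (27.7 to 37.1) and 135 CPM (109 to 167) in the progenitor-marker-rich cells of CGE, the latter over 93 cells. After thinning, close shares of these cells had a UMI of Cdkn1c, 6.58% and 6.45%. In the neuronal-marker-rich cells of CGE it was at 113 (105 to 120) and 99.8 CPM (89.8 to 111), and the intervals overlap. The shares there were 19.9% and 20.1%, so that a reversal of order between the classes is not shown. In POA both classes had the order of the whole library in CPM for both genes. The thinned shares of Ccnd2 in progenitor-marker-rich POA cells were close, however, at 46.6% and 45.3%. Cdkn1b, which helps cells leave the cycle, was at 58.2 and 45.6 CPM in POA and 88.8 and 52.2 CPM in CGE, higher in the G2/M-positive cells.

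Domain markers did not divide the regions cleanly, and Cdkn1c was examined against them after the values had been seen. In CGE cells with a UMI of Nkx2-1 or Lhx6 its level was 124 CPM, and 72.4 CPM in the other CGE cells. In POA the values were 650 and 613 CPM. Of 181 POA cells with a UMI of Hmx2 or Hmx3, which mark the domain of the neurogliaform lineage, 10 (5.52%) had at least 3 G2/M genes, and Cdkn1c stood at 589 CPM. The POA level thus lay far above the CGE level with or without these markers.

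The next comparison sets FlashTag cells, labelled while dividing at the ventricle, against the tdTOM+/GFP+ cells of the Hmx3 lineage, both from E14.5 POA and captured on C1 chips in separate tables. Of the 44 members, 35 were called higher in FlashTag cells and 0 lower, where 15.3% and 7.53% of all 10438 genes tested were called. They were all 22 G2/M members, 12 of the 14 G1/S members tested and Ccnd1. The median log2 difference was 2.11 over the G2/M and 1.79 over the tested G1/S members, against 0.11 over all genes tested. Sort, mouse strain, transgene and library preparation cannot be told apart here. Oligodendrocyte precursor markers had a count in 29.0% of FlashTag and 1.67% of tdTOM+/GFP+ cells and Cajal-Retzius markers in 8.81% and 33.3%. Most of the 29.0% was Olig2, in 25.9% of FlashTag cells, with Pdgfra in 3.69% and Sox10 in 0.852%. A count of a marker does not make a cell of that type, and the part of these markers in the differences was not tested.

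Mki67 was at 306 CPM in FlashTag and 28.0 CPM in tdTOM+/GFP+ cells, a 10.9-fold difference. Birc5 was at 136 and 14.7 CPM and Bub1, a kinase of the spindle checkpoint, at 41.6 and 2.22 CPM. Top2a was at 454 and 58.8 CPM, Cenpf at 270 and 27.2 CPM and Nusap1, a spindle microtubule bundler, at 163 and 14.4 CPM. These are differences of several-fold in every case. Ccnb1 was at 105 and 10.3 CPM, Cdk1 at 81.6 and 10.9 CPM and Aurkb at 26.4 and 2.45 CPM. Plk1, a mitotic kinase, was low in both at 15.7 and 1.81 CPM. The G2/M members thus spread over log2 differences that reached 3.06 for Mki67 and stood at 1.12 for Plk1, whose difference is held down by the 10 CPM added. 

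Of the G1/S members, Rrm2 was at 102 and 11.9 CPM (log2 difference 2.35), while Mcm7 at 129 and 75.4 CPM and Pcna at 40.5 and 25.2 CPM were not called. E2f1, at 8.82 and 0.836 CPM, and Cdk2, at 9.33 and 0.700 CPM, were too low to be tested. Ccnd1 was at 255 and 47.5 CPM, a log2 difference of 2.21, and Ccnd2 at 332 and 181 CPM, a log2 difference of 0.84. The helicase subunits other than Mcm7 were called, from Mcm3 at 43.1 and 3.18 CPM to Mcm6 at 120 and 25.2 CPM. Of the other lists, 16 of 23 G1/S genes, 21 of 30 G2/M genes and 5 of 14 G1 regulators tested were higher in FlashTag cells.

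Of the G1 genes and the inhibitors, only Ccnd1 was called. Cdk2 had a wide ratio at levels too low to be tested. The inhibitors had log2 differences from 0.14 to 0.82, the widest for Cdkn1a, at 14.3 CPM in FlashTag and 3.71 CPM in tdTOM+/GFP+ cells. Cdkn1b was at 68.3 and 60.8 CPM, and Cdkn1c at 422 and 335 CPM, so that both POA sorts held it at a high level.

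Cells of these tables were thinned to 100000 counts, and a cell with at least 5 genes of a list was counted. At least 5 G2/M genes were found in 98 of 352 FlashTag cells (27.8%, 23.2 to 32.8) and in 15 of 418 tdTOM+/GFP+ cells (3.59%, 2.02 to 5.85). At least 5 G1/S genes were found in 64 FlashTag cells (18.2%) and likewise in 15 tdTOM+/GFP+ cells. Both lists were met by 45 FlashTag and 4 tdTOM+/GFP+ cells. The number of genes a cell was asked for set these shares, which for G2/M were 52.8% and 8.85% with 3 genes and 19.0% and 1.91% with 8. By chip rows 1 to 20 and 21 to 40, the tdTOM+/GFP+ share with G1/S genes was 0.518% and 6.22%, and the FlashTag share 20.3% and 16.1%.

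**Figure D4:**
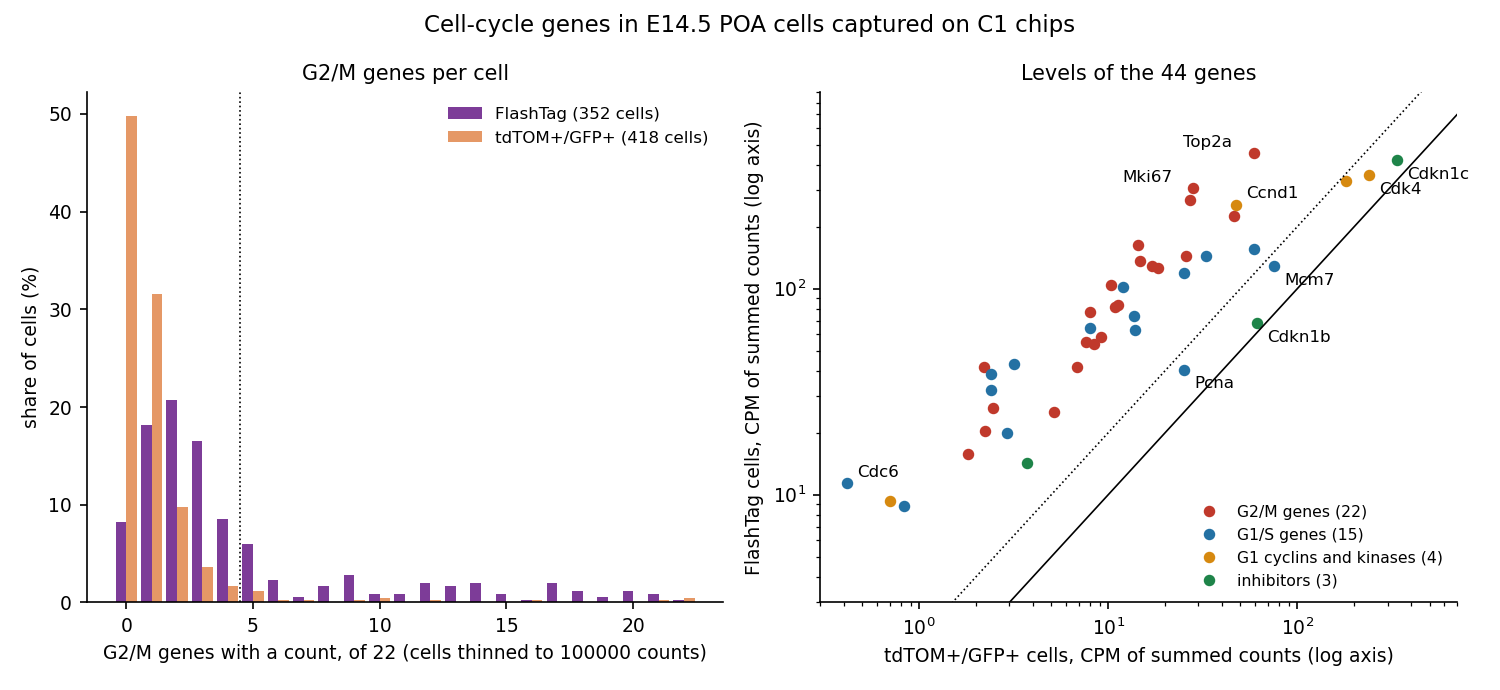
Left, share of FlashTag and tdTOM+/GFP+ cells (y axis, percent) by the number of the 22 G2/M genes with a count after thinning to 100000 counts (x axis), with a dotted line at the bound of 5 genes. Right, level of each member in FlashTag cells (y axis, CPM of summed counts, log scale) against tdTOM+/GFP+ cells (x axis, same scale), with a solid line at equal level and a dotted line at 2-fold. FlashTag cells tail out to high gene numbers, with 67 cells at 8 or more against 8, and the G2/M genes lie above the dotted line.

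The number of G2/M genes per cell was spread widely. FlashTag cells had a median of 3, with 225 cells at 1 to 4 genes, 31 at 5 to 7 and 67 at 8 or more. The tdTOM+/GFP+ cells had a median of 1, with 208 at 0 and 8 at 8 or more. FlashTag cells under 5 genes still had a count of Top2a in 41.7% and of Mki67 in 22.0% of cells, and the corresponding tdTOM+/GFP+ cells in 11.9% and 6.45%. Of the FlashTag cells, 295 were progenitor-marker-rich, of which 91 (30.8%) had at least 5 G2/M genes, and 57 were neuronal-marker-rich, of which 7 did. Only 3 of the 418 tdTOM+/GFP+ cells were progenitor-marker-rich. All 15 tdTOM+/GFP+ cells with at least 5 G2/M genes were neuronal-marker-rich, 12 of them had a count of a progenitor marker, and 9 a count of Hmx2 or Hmx3.

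In the tdTOM+/GFP+ cells with at least 5 G2/M genes, a group defined by these counts and given as a description, Top2a stood at 1215 CPM, against 1406 CPM in FlashTag cells past the same number. Mki67 stood at 536 and 922 CPM in the same order, Cenpf at 532 and 794 CPM, Bub1 at 55.3 and 122 CPM and Cdk1 at 249 and 246 CPM. Of the G1/S members, Rrm2 stood at 70.7 and 298 CPM, Mcm2 at 0.169 and 73.1 CPM, Ccne2 at 2.87 and 87.7 CPM, Mcm3 at 66.3 and 93.5 CPM and Mcm5 at 70.5 and 97.5 CPM. Besides Cdk1, other G2/M members were higher in the tdTOM+/GFP+ cells. These were Ube2c at 911 and 740 CPM, Cenpe at 511 and 457 CPM, Cdc20 at 152 and 130 CPM and Aurka at 85.5 and 80.0 CPM. The rest of the G2/M members and all G1/S members were lower there to differing degrees. The values rest on 15 cells.

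The postnatal interneurons give the floor, since mature neurons do not divide. At least 5 G2/M genes were found in 0 of 191 tdTOM+ and 0 of 185 tdTOM- cells deep enough at P15, which allows shares of up to 1.91% and 1.97%, and in 0 of 292 and 0 of 275 at P30, which allows up to 1.26% and 1.33%. Of 42 Patch-seq cells, 1 had them. The tables hold raw counts over different gene rows. Of the 44 members, 43 had a row at P15, which lacked Ccnd1, and 34 at P30, where Mki67, Top2a, Ccnb1, Cdk1, Aurkb, Bub1, Ube2c, Kif23, Mcm3 and Cdk2 had none. Levels across the tables are therefore side by side and are not compared.

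Several members were not at this floor. Ccnd2 was at 265 and 280 CPM in tdTOM+ and tdTOM- cells at P15, at 293 and 258 CPM at P30 and at 116 CPM in Patch-seq cells. Cdkn1b was at 49.0, 50.7, 39.1, 42.2 and 14.2 CPM in the same order. Ccne1 was at 49.4, 77.8, 26.8, 24.5 and 17.9 CPM. A cyclin D, an inhibitor and a cyclin E were thus present in these neurons while Mki67 was at 0 and 1.12 CPM at P15. Cenpe, a G2/M member, was at 9.09 and 10.6 CPM at P15 and 28.4 and 12.5 CPM at P30, and Cenpa at 30.3 and 44.2 CPM at P15 and 2.96 and 7.36 CPM at P30. The other 12 G2/M members with a row at P30 were at 6.15 CPM or less there. Ccnd1 had a row at P30, with 61.0 and 37.3 CPM, and in Patch-seq cells, with 24.5 CPM. Cdk4 was at 25.5 and 33.0 CPM at P15 and 17.1 and 19.3 CPM at P30.

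Cdkn1c, high in embryonic POA, was at 11.7 and 32.7 CPM at P15, 5.24 and 3.38 CPM at P30 and 7.38 CPM in Patch-seq cells. At P15, 26 of the 43 members were found in under 5% of cells of each sort, and at P30 19 and 17 of the 34. At least 5 G1/S genes were found in 1.05% of tdTOM+ and 1.08% of tdTOM- cells at P15, and in 0% and 0.364% at P30. In Patch-seq cells, 9 of 42 (21.4%) had them, and Pcna was at 75.9 CPM there. The FlashTag share by this rule was 18.2%, so that the rule for G1/S genes does not set patched neurons apart from FlashTag cells.

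**Figure D5:**
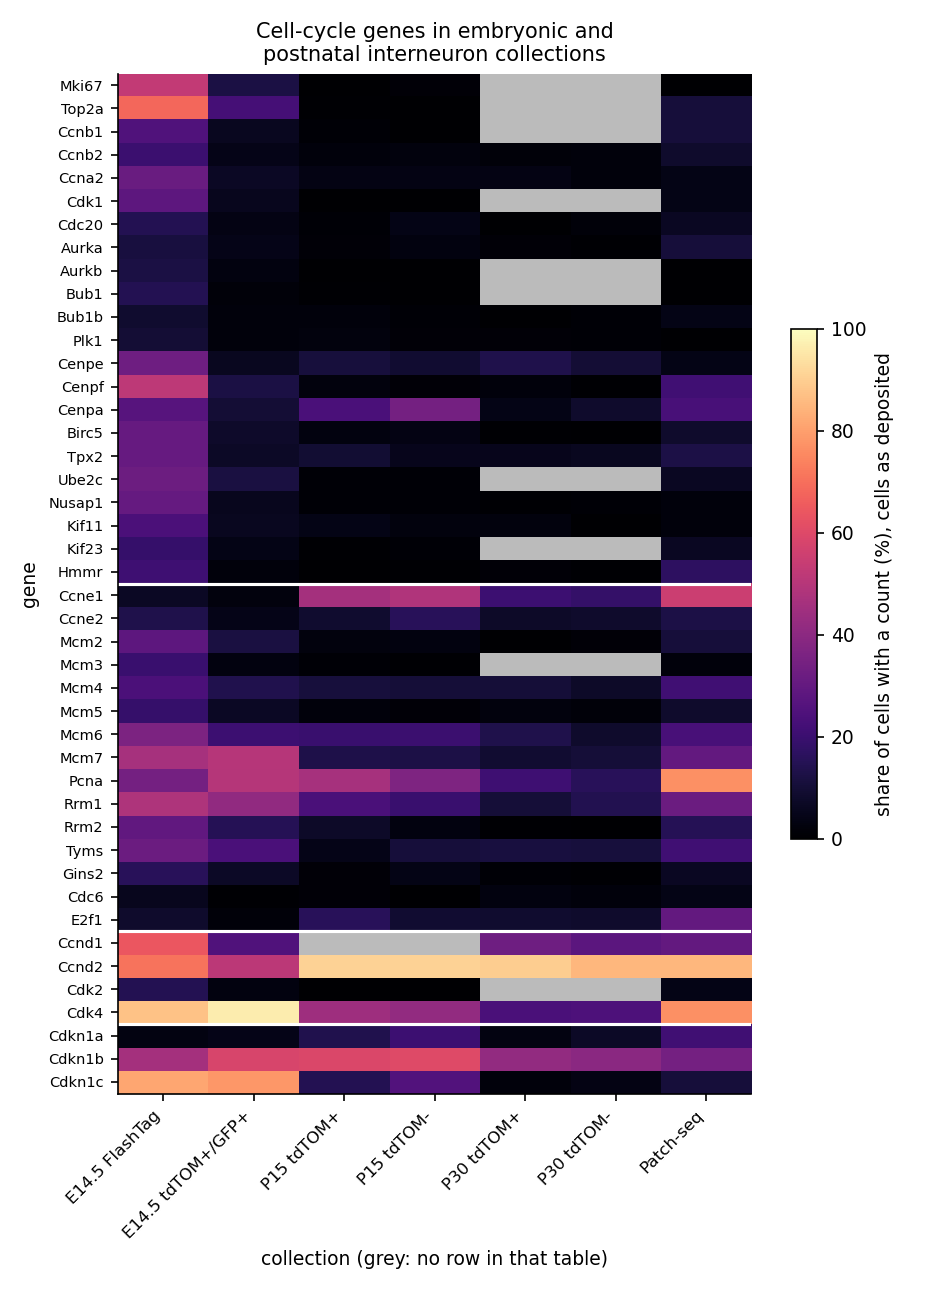
Share of cells with a count of each member (color, percent, cells as deposited) in each C1 collection and the Patch-seq cells (columns), with grey where a table has no row. In the sorted postnatal cells most G2/M genes are near 0, while Ccnd2 has a count in 85.0% to 90.8% of cells, and Cdkn1b and Ccne1 are also found.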

How the data were processed

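Single-cell RNA-seq counts from mouse interneurons and their precursors were taken from 7 deposited tables. The authors made these counts by aligning reads, collapsing UMIs and leaving out cells with few genes, with high mitochondrial shares or, on C1 chips, seen as doublets. The submitters' processing notes name Cell Ranger, STAR, UMI-tools and mm10. No label names an animal, so each collection was 1 sample and the spread between animals is unknown. The members, lists and comparisons were chosen with earlier results of these data known. The bins of the marker order, the neuronal end as a background, the 6-gene rule, the comparison of neuronal-marker-rich cells, the splits by domain markers and by G2/M genes, and the motifs and promoters were chosen after seeing the values.

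Counts summed per group were scaled to CPM over all gene rows of their own table, and the genes present in both tables were then compared. Differences are on the log2(CPM + 10) scale, which understates those of low genes. Levels and ratios carry exact Poisson intervals and shares carry exact Clopper-Pearson intervals at 95%. The intervals cover counting error only. For C1 cells the Poisson intervals are too narrow, since cells vary by more than counting error. Shares were taken after thinning droplet cells to 2500 UMIs and C1 cells to 100000 counts (random seed 1), without shallower C1 cells. Droplet cells held 3910 to 65782 UMIs in POA and 2515 to 57497 in CGE. No program for doublets was run, and leaving out the 5% of cells with the most UMIs was an alternative. The genes named are the 44 members in their 4 groups, and the other pathway genes are given by counts over 3 lists. The steps were tested on simulated data. Promoters came from a RefSeq table. Protein sequences were not used here. Versions used were matplotlib 3.10.9, pandas 2.3.3, scipy 1.17.1, numpy 2.4.6 and Python 3.11.15. Alternatives were other gene numbers, thinning depths, pseudocounts, filters, measures, cell filters and chip rows.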

Additional observations from a re-analysis of the deposited data

Results flagged for a closer look

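Ccnd2 had log2 differences of opposite sign between progenitor-marker-rich and neuronal-marker-rich cells in the 2 regions, 0.13 in POA and -0.018 in CGE. The difference between the regions was not tested, since each is 1 library, and the interval of the CGE ratio (0.961 to 1.015) includes equality. By the mean CPM of single cells the CGE difference of Ccnd2 was positive, so that the opposite sign was lost.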

How the results depend on the processing

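The called differences that were rerun kept their sign under every alternative. The comparison of neuronal-marker-rich cells between the regions was not rerun. Of the uncalled differences, that of Ccnd2 between the classes of CGE turned positive by the mean CPM of single cells. The order of the regions in the ratio of G1/S to G2/M UMIs did not hold. Without thinning, neither did the order of the G2/M (36.5%) and G1/S (43.4%) shares in POA. With 2, 4 and 6 genes in place of 3, the G2/M share was 28.7%, 19.2% and 14.2% in POA and 61.8%, 38.1% and 29.2% in CGE, and the G1/S share 26.5%, 8.36% and 3.70% in POA and 49.9%, 21.9% and 10.7% in CGE. At 5000 UMIs, which left out 281 POA and 1622 CGE cells, these shares were 29.7% and 27.1% in POA and 66.6% and 56.7% in CGE, the Nes end had G2/M shares of 66.0% and 79.7%, and the CGE Dcx end had 50.3%. Ordered by summed markers, the Dcx end had 1.29% in POA and 15.6% in CGE. The G1/S share in POA was 17.1% without the 730 POA cells that had other markers (615 in CGE). That ratio was 0.409 in POA and 0.386 in CGE after thinning, and 0.380 in CGE without the 5% of cells with the most UMIs. Of the members, 22 were higher in CGE than in POA with 10 CPM added, 34 with 1 CPM and 2 with 50 CPM, 8 by the mean CPM of single cells, 12 without the 5% of cells with the most UMIs, 7 without cells with other markers and 7 with the level at the neuronal end subtracted. Between progenitor-marker-rich and neuronal-marker-rich cells, 1 CPM added gave 1 lower member in POA and 8 higher and 2 lower in CGE, and 50 CPM gave 5 higher in POA and 1 higher and 0 lower in CGE. Between progenitor-marker-rich cells, 4 members were higher in CGE with 1 CPM. FlashTag cells had 17 members higher with 50 CPM. With 3 and 8 genes, and with 5 counts asked of a gene, FlashTag shares were 52.8%, 19.0% and 18.8% for G2/M and 41.5%, 7.67% and 12.8% for G1/S. The tdTOM+/GFP+ shares were 8.85% and 1.91% for G2/M with 3 and 8 genes, and 29.7%, 0.718% and 1.67% for G1/S. By chip rows the latter was 0.518% and 6.22%. After thinning, 23 members were found in under 5% of Patch-seq cells, in place of 13. Asking for more genes or adding more CPM lowers the numbers by construction. For the others, the cause was not tested. The alternatives that leave out shared barcodes, domain or other markers, ask 6 genes or subtract the end level were chosen after seeing the data. No paired analysis was possible because the numbers in the labels name single cells and each group is 1 sample, and for the same reason no replicate could be left out. Depth limits the shares, since a cell with few UMIs can show few genes of a list, and with 1 library a group no difference could be set against the spread between animals.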
